A study of Mus musculus with 8 samples.

Results

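Mitochondrial ribosomal protein genes were the rows of the count table whose mouse symbol was Mrpl or Mrps followed by a number and at most 1 letter. They were 77 of 22065 named genes, 48 with an Mrpl symbol for the large subunit and 29 with an Mrps symbol for the small subunit. All 77 passed the expression filter and are among the 16444 genes tested. Mrpl53 was not analysed here. RNA-seq was performed on 8 libraries of 100 hematopoietic stem cells (HSCs) sorted from the bone marrow of C57BL/6 mice aged 8 to 10 weeks. The 4 Mitol KO libraries came from Mitol Flox/Flox; MX1-cre+ mice, in which Poly:IC turns on the interferon-responsive MX1-cre transgene and deletes Mitol. The 4 control libraries came from Mitol Flox/Flox littermates without the transgene. Both groups received Poly:IC and, per the study's methods, HSCs were taken 1 week after it. MX1-cre is active in other hematopoietic cells and tissues as well as in HSCs, and the sources do not state whether a library pooled mice.

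The mitochondrial ribosome translates the mRNAs of the mitochondrial genome, which encode core subunits of the respiratory chain. Its rRNAs are encoded by mitochondrial DNA, whereas all of its proteins are encoded in the nucleus, made in the cytosol and imported. Some of these proteins have bacterial counterparts and others were added during mitochondrial evolution. HSCs are known for low reliance on respiration at rest and for rising mitochondrial activity when they divide or differentiate.

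Named-gene counts ran from 7214935 to 12398138 per library. The targeted gene Marchf5, which encodes MITOL, had 232 to 308 normalized counts in Mitol KO HSCs and 262 to 333 in control HSCs. The log2 fold change was -0.15 (SE 0.13, adjusted p = 0.498), so the count over the whole gene does not distinguish the groups. Counts are shown after division by the size factors of DESeq2. Fold changes are Mitol KO over control and were tested with the quasi-likelihood method of edgeR. P-values were adjusted after Benjamini and Hochberg over all 16444 genes, with a threshold of 0.05. All 12 HSC markers were detected. Of the markers of neutrophils, B cells, T cells and mast cells, 6 genes were tested, 0 were called by edgeR and 1, Prtn3, was at an unadjusted p under 0.05. The neutrophil genes S100a8 and S100a9 did not pass the filter, with 0 to 1.57 normalized counts in Mitol KO libraries, up to 2.64 in control replicate 1 and 11.3 to 51.2 in control replicates 2 to 4. The part of neutrophil RNA in the members' levels was not tested. Among erythroid markers Hbb-bt was called higher, with list sums of 111 to 534 CPM in Mitol KO and 50.2 to 96.6 CPM in control HSCs. Of 4 megakaryocyte markers tested, Pf4 was called lower and 1 had a positive log2 fold change. The sums of the megakaryocyte list overlapped, at 249 to 536 CPM in Mitol KO and 334 to 513 CPM in control HSCs. In bulk libraries, a smaller share of cells that express a gene and less of its RNA per cell cannot be told apart.

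Promoter windows of 4 members that were higher in Mitol KO HSCs are shown first, since they hold the sequence features compared further on. The windows are RefSeq promoters on GRCm38.p6, each with 250 bases before and 50 bases after the annotated start, written on the gene's strand. Capitals mark the letters of motifs known for YY1 (AAGATGGC), SP1 (GGGCGG), NFY (CCAAT) and ETS factors such as GABPA (CCGGAAG), searched on both strands. Mrps12 at chr7:28741772-28742071 on the minus strand is shown because it holds letters of all 4 motifs and shares 246 bases with the window of its neighbour Sars2. Mrps24 at chr11:5707652-5707951 on the minus strand and Mrps7 at chr11:115603890-115604189 on the plus strand hold the YY1 letters shortly after the start. Mrpl12 at chr11:120484387-120484686 on the plus strand is shown as the called member whose window held none of the letters searched.
Mrps12: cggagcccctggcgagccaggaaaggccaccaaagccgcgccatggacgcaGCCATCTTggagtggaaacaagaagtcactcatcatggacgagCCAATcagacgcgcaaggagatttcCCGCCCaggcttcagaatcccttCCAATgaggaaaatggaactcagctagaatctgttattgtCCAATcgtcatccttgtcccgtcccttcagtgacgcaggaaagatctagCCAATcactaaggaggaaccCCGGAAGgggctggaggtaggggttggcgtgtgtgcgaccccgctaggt
Mrps24: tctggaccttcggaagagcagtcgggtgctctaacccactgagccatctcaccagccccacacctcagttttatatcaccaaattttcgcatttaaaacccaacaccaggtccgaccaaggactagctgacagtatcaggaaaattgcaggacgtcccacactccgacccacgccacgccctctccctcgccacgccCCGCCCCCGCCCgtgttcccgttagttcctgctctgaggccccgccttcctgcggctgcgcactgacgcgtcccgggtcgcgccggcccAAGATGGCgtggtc
Mrps7: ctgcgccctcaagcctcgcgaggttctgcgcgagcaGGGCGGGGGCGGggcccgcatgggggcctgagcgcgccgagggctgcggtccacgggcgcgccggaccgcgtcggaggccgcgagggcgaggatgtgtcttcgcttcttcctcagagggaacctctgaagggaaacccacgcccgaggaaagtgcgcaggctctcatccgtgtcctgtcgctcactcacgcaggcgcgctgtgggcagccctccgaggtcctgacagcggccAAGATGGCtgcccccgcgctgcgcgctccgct
Mrpl12: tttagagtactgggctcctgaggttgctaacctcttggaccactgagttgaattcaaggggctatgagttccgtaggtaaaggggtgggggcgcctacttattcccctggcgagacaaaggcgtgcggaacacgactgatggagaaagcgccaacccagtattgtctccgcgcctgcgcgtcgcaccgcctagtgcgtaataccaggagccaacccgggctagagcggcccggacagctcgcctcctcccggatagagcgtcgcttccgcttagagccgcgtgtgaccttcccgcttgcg

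The levels of mitochondrial ribosomal protein mRNAs were mostly higher in Mitol KO HSCs, each by less than 1 log2 unit. Of 77 members, 62 (80.5%) had a positive log2 fold change, compared with 47.7% of all genes tested. The median over members was 0.23, with quartiles of 0.06 and 0.42, and the median over all genes tested was -0.02, with quartiles of -0.29 and 0.21. Above the upper quartile of all genes lay 43 of the 77 members.

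**Figure D1:**
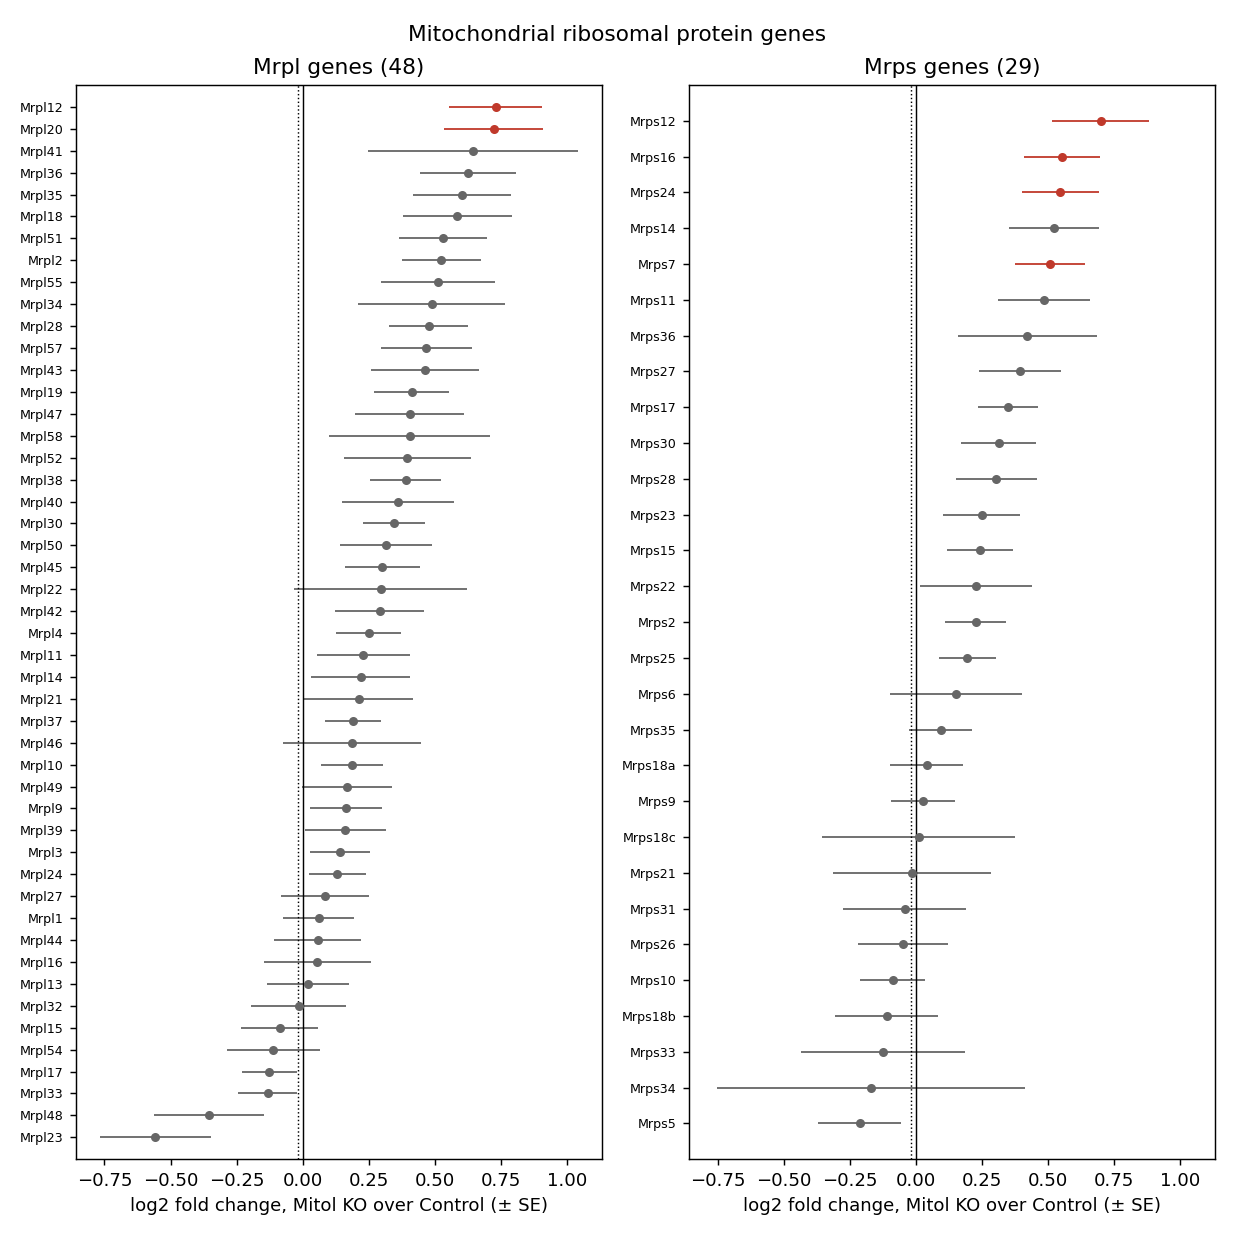
Log2 fold change of each mitochondrial ribosomal protein gene in Mitol KO over control HSCs (x axis) with its standard error (bars), for 48 Mrpl genes (left) and 29 Mrps genes (right). Red points are the 6 genes past the threshold, the solid line is 0 and the dotted line is the median of all genes tested at -0.02. Of the 77 points, 62 lie above 0.

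Past the threshold were 6 of 77 members (7.79%), all higher in Mitol KO HSCs, against 8.43% of all genes in either direction and 4.68% of all genes in the higher direction. They were Mrpl12 and Mrpl20 of the large subunit and Mrps7, Mrps12, Mrps16 and Mrps24 of the small subunit. The share called in either direction was near that of all genes. At an unadjusted p under 0.05, 23 members were higher, against 13.6% of all genes, and 1 member was lower, against 12.8% of all genes. By DESeq2, 17 of 76 members with an adjusted p were called higher and 0 lower, against 8.19% of genes called higher by DESeq2, and the 17 held all 6 members called by edgeR.

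Mrpl12, a protein of the stalk to which translation factors dock, is encoded at chr11:120375430-120381396 of GRCm39. Its normalized counts were 512, 601, 457 and 366 in Mitol KO replicates 1 to 4 and 380, 277, 268 and 231 in control replicates 1 to 4. Mitol KO replicate 4 lay below control replicate 1, and the other 3 Mitol KO libraries lay above every control library. The log2 fold change was 0.73 (SE 0.18, adjusted p = 0.0287), the highest of the 77.

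Mrpl20, an rRNA-binding protein of the large subunit at chr4:155887335-155894435, had 170, 216, 166 and 144 normalized counts in Mitol KO HSCs. In control HSCs it had 129, 100, 105 and 83.5. The groups did not overlap, and the log2 fold change was 0.72 (SE 0.19, adjusted p = 0.0365).

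Mrps12, a protein of the decoding centre at chr7:28439066-28441680, had 256, 245, 280 and 251 normalized counts in Mitol KO HSCs and 185, 143, 195 and 108 in control HSCs. Its Mitol KO libraries were close together and all above the control libraries, which were spread more widely. On the log2 scale it was higher by 0.70 (SE 0.18, adjusted p = 0.0367).

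Mrps16, an rRNA-binding protein of the small subunit body at chr14:20439372-20443713, had 326, 389, 312 and 275 normalized counts in Mitol KO HSCs and 261, 199, 202 and 216 in controls. Every Mitol KO library was above every control library. Its log2 fold change was 0.55 (SE 0.14, adjusted p = 0.0366).

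Mrps24, at chr11:5642243-5665680, lies at the channel through which mRNA enters. It had 292, 349, 324 and 279 normalized counts in Mitol KO HSCs and 261, 204, 195 and 183 in control HSCs, again without overlap. The log2 fold change was 0.55 (SE 0.14, adjusted p = 0.0386).

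Mrps7, which binds rRNA in the head of the small subunit, is at chr11:115494636-115498871. It had 411, 451, 422 and 373 normalized counts in Mitol KO HSCs and 314, 261, 336 and 242 in controls. There was no overlap, with a log2 fold change of 0.51 (SE 0.13, adjusted p = 0.0357). Of the exon bases of Mrps7, 70.2% overlap other genes of the table, so its counts are uncertain where the counting did not use strand.

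The 6 calls were sensitive to leaving out a library. Without Mitol KO replicate 1, 2 or 3, or without control replicate 2 or 4, 0 of 77 members passed the threshold, whereas 16 passed without Mitol KO replicate 4, 8 without control replicate 1 and 3 without control replicate 3. The calls over all genes fell as well in those fits, to between 359 and 811 without any of the libraries whose removal lowered the members' count, and rose to 2501 without Mitol KO replicate 4. The fold changes stayed positive in all 8 of these fits, from 0.62 to 0.90 on the log2 scale for Mrpl12, 0.61 to 0.85 for Mrpl20, 0.55 to 0.82 for Mrps12, 0.46 to 0.66 for Mrps16, 0.49 to 0.68 for Mrps24 and 0.43 to 0.59 for Mrps7.

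**Figure D2:**
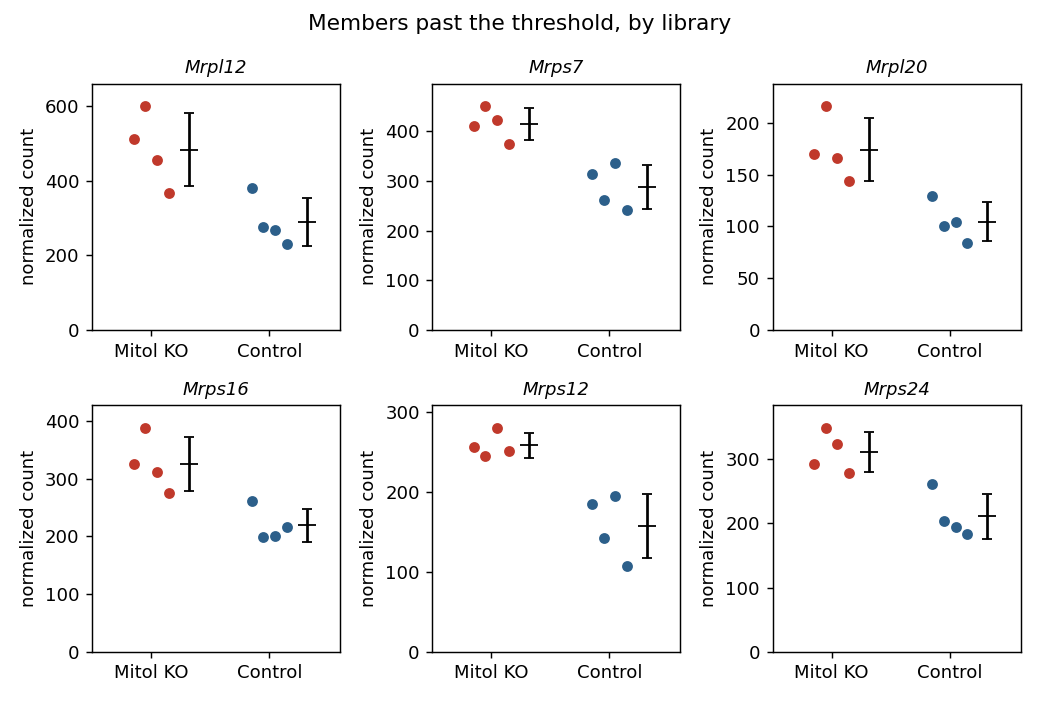
Normalized counts of the 6 members past the threshold (y axis from 0), 1 point per library, for 4 Mitol KO (red) and 4 control libraries (blue), with the mean and SD beside each group. Groups overlap for Mrpl12, where Mitol KO replicate 4 has 366 and control replicate 1 has 380, and do not overlap for the other 5 genes.

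Groups did not overlap for 17 members, all higher in Mitol KO HSCs, against 8.17% of all genes higher without overlap. No member was lower in every Mitol KO library than in every control library, against 7.18% of all genes. The 17 members comprised 8 Mrpl and 9 Mrps genes. One of them, Mrpl28, had 639, 640, 473 and 425 normalized counts in Mitol KO HSCs and 422, 402, 403 and 320 in control HSCs (log2 fold change 0.48, SE 0.15, adjusted p = 0.0676). Another was Mrpl2, which lies close to the peptidyl transferase centre. It had 280, 307, 251 and 267 normalized counts against 229, 152, 177 and 200 (log2 fold change 0.52, SE 0.15, adjusted p = 0.0502).

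The member with the lowest p-value among those with a negative log2 fold change was Mrpl23, a protein at the exit of the peptide tunnel at chr7:142086423-142094486. Its normalized counts were 98.6, 123, 87.9 and 96.3 in Mitol KO HSCs and 107, 181, 123 and 176 in control HSCs. The groups overlapped, because Mitol KO replicate 2 was above control replicate 1. The log2 fold change was -0.56 (SE 0.21, adjusted p = 0.116). Mrpl48 of the central protuberance had a log2 fold change of -0.35 (SE 0.21, adjusted p = 0.304), Mrps5 of the small subunit -0.21 (SE 0.16, adjusted p = 0.422), Mrpl33 -0.13 (SE 0.11, adjusted p = 0.487) and Mrpl17 -0.13 (SE 0.10, adjusted p = 0.473). None of these 5 members passed the threshold.

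Large and small subunit genes were then compared. The median log2 fold change was 0.27 over 48 Mrpl genes, with 41 positive values and 2 calls (4.17%). It was 0.23 over 29 Mrps genes, with 21 positive values and 4 calls (13.8%). Of all genes, 4.68% were called higher, which is near the share of Mrpl genes. The difference between the subunits was not tested. Mrps18a and Mrps30 carry small subunit names but are placed in the large subunit in structures of the mitoribosome, and Mrps36 is a component of 2-oxoglutarate dehydrogenase. Sorted by place, the median was 0.27 over 50 large subunit genes and 0.21 over 26 small subunit genes. Mrps30 had a log2 fold change of 0.31 (SE 0.14, adjusted p = 0.186) and Mrps36 of 0.42 (SE 0.26, adjusted p = 0.331).

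The summed level of Mrpl genes was 1347, 1390, 1278 and 1189 CPM in Mitol KO replicates 1 to 4 and 1179, 1043, 1112 and 1065 CPM in control replicates 1 to 4. That of Mrps genes was 759, 766, 740 and 675 CPM in Mitol KO HSCs and 692, 593, 644 and 586 CPM in control HSCs. Mrpl sums did not overlap between the groups, whereas the Mrps sum of Mitol KO replicate 4 lay below that of control replicate 1. Divided by each other, large to small sums ranged from 1.73 to 1.82 in Mitol KO HSCs and from 1.70 to 1.82 in control HSCs, with means of 1.77 ± 0.04 and 1.75 ± 0.05 (SD, n = 4). The difference of these means was smaller than the spread between libraries of a group.

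Proliferation markers were also higher in Mitol KO HSCs. Their summed level was 2821, 2879, 2078 and 1356 CPM in Mitol KO replicates 1 to 4 and 1065, 927, 1285 and 879 CPM in control replicates 1 to 4, and 14 of 17 genes were past the threshold, all higher. Mitol KO replicate 4, with the lowest sum of proliferation markers among Mitol KO libraries, also had the lowest sums of Mrpl and Mrps genes among them. The order differed among control libraries, where proliferation markers were highest in replicate 3 and both Mrpl and Mrps sums were highest in replicate 1. The part of proliferation in the members' levels was not tested. Of 12 HSC markers, Kit, Hlf and Pdzk1ip1 were called lower, and 1, Slamf1, had a positive value. Slamf1 had a log2 fold change of 0.56 (SE 0.16, adjusted p = 0.0501), with every Mitol KO library above every control library.

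**Figure D3:**
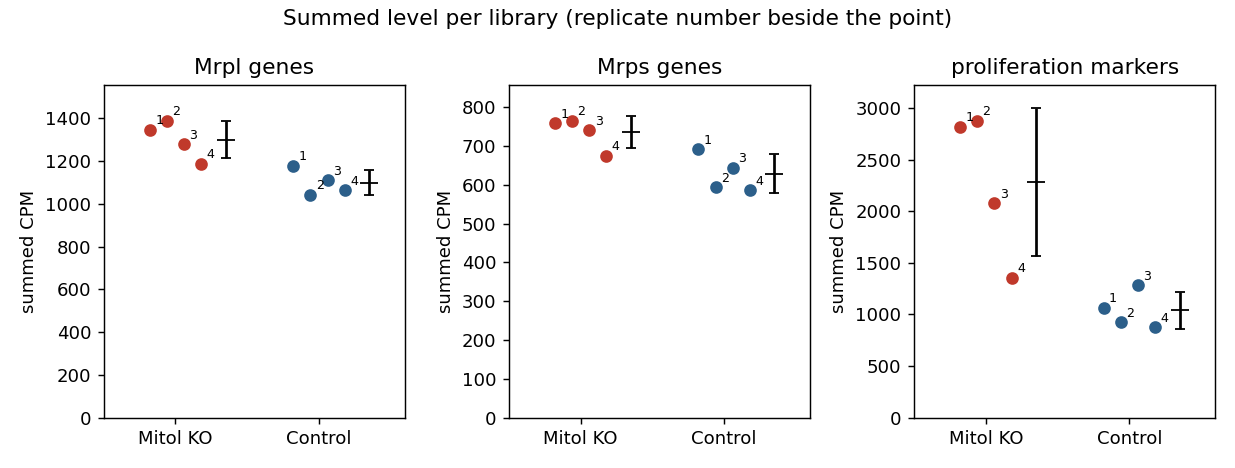
Summed CPM (y axis from 0) of Mrpl genes, Mrps genes and 17 proliferation markers in 4 Mitol KO (red) and 4 control libraries (blue), with replicate numbers beside the points and the mean and SD beside each group. Mitol KO replicate 4 is the lowest Mitol KO library in all 3 panels, at 1189, 675 and 1356 CPM.

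Members with a bacterial counterpart included all 6 edgeR calls among 45 genes (13.3%, against 4.68% of all genes called higher), with a median log2 fold change of 0.23. At an unadjusted p under 0.05, 16 of these 45 were higher and 1 was lower, against 13.6% and 12.8% of all genes. Members specific to mitochondria had 0 calls by edgeR among 31 genes, with a median of 0.23. At an unadjusted p under 0.05, 7 of these 31 were higher and 0 lower. DESeq2 called Mrpl38 and Mrpl51 among them. Of 10 small subunit genes specific to mitochondria, 5 had positive values, with a median of 0.03. The difference between these groups of genes was not tested.

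Members were also described by their place in the ribosome. In the stalk, Mrpl10 and Mrpl11 had log2 fold changes of 0.19 (SE 0.12) and 0.23 (SE 0.18), beside 0.73 for Mrpl12, and did not pass the threshold. In the central protuberance, which joins the subunits, the median over 6 genes was 0.38 with 0 calls by edgeR. Mrpl18 had 0.58 (SE 0.21), Mrpl38 0.39 (SE 0.13), Mrpl40 0.36 (SE 0.21), Mrpl46 0.19 (SE 0.26) and Mrpl58, a peptidyl-tRNA hydrolase built into the ribosome, 0.40 (SE 0.30). Mrpl48 went the other way, at -0.35 (SE 0.21).

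Around the peptide exit and the membrane-facing side, the median over 6 genes was 0.21 with 0 calls by edgeR. Mrpl45, which faces the inner membrane, had a log2 fold change of 0.30 (SE 0.14), and Mrpl47 had 0.40 (SE 0.21). Mrpl22 had 0.29 (SE 0.33), Mrpl24 had 0.13 (SE 0.11) and Mrpl44 had 0.06 (SE 0.16). Mrpl23, at -0.56 (SE 0.21), was the only gene of this list at an unadjusted p under 0.05. Near the peptidyl transferase and decoding centres, Mrpl3, Mrpl16 and Mrpl27 had 0.14 (SE 0.11), 0.06 (SE 0.20) and 0.08 (SE 0.17), below the values of Mrpl2 and Mrps12.

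The Mrps18 genes are paralogues of each other, and Mrps18a is placed in the large subunit. Mrps18a, Mrps18b and Mrps18c had log2 fold changes of 0.04 (SE 0.14), -0.11 (SE 0.19) and 0.01 (SE 0.36), and the signs of all 3 turned in some alternative fits. For these 3 genes, 71.9%, 67.5% and 82.4% of exon bases overlap other genes. Such overlap of at least 50% held for 8 members and for 4.17% of protein-coding genes. Over the 69 members below it, the median was 0.25, with 5 calls (7.25%), all higher. Of all genes, 8.43% were called in either direction and 4.68% higher.

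Levels across members were compared per length of the canonical transcript. The highest were Mrpl33 at 69.9, Mrpl28 at 45.9 and Mrpl4 at 35.1 CPM per kb, as means of 8 libraries. The lowest were Mrps18c at 0.572, Mrps34 at 0.905 and Mrps33 at 2.37 CPM per kb. Mrps34 had 2.08 to 13.2 normalized counts per library and a log2 fold change of -0.17 (SE 0.58), and 77.9% of its exon bases overlap other genes. Mrps18c, with the lowest level, is overlapped as well, and the part of overlap in these levels was not tested. At such counts, a difference of the size seen in other members was not detectable. Mrps33 had -0.13 (SE 0.31) and Mrpl4 had 0.25 (SE 0.12). The order depended on the transcript models. Per coding length, Mrps17, named here after its value was seen, was highest at 151 CPM per kb. Mrpl33 followed at 130 and Mrpl24 at 107, and Mrps34 was lowest at 1.29.

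**Figure D4:**
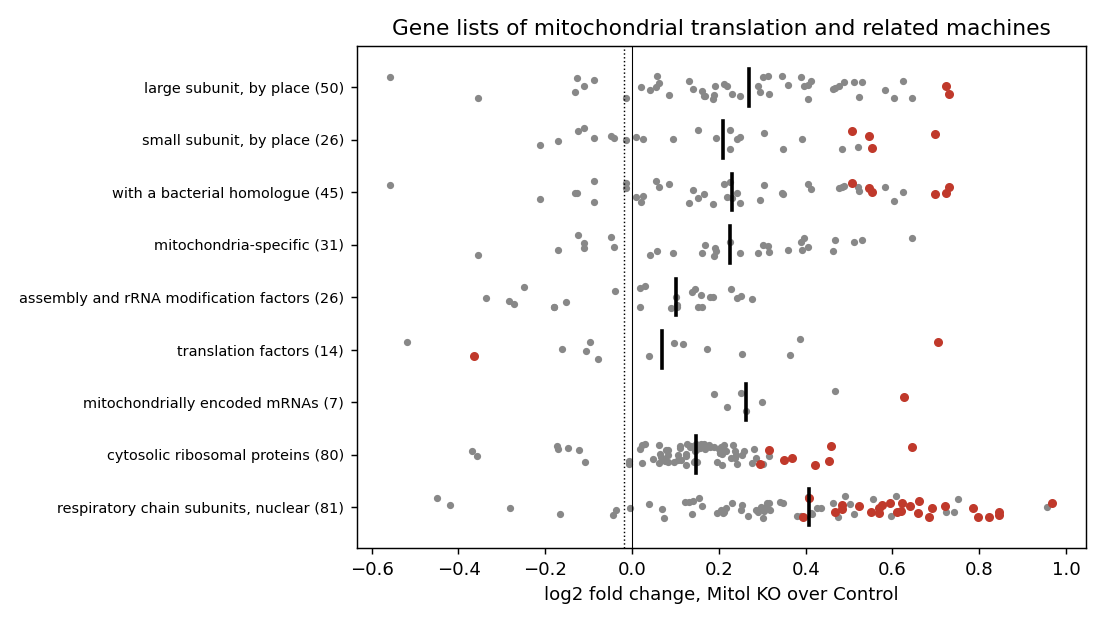
Log2 fold change in Mitol KO over control HSCs (x axis) of single genes (points) in 9 lists, with the number tested in parentheses. Red points are past the threshold, black bars are list medians and the dotted line is the median of all genes tested. The bars lie at 0.27 for the large subunit, 0.21 for the small subunit, 0.10 for assembly factors, 0.07 for translation factors, 0.15 for cytosolic ribosomal proteins and 0.41 for respiratory chain subunits.

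The remaining machinery of mitochondrial translation was described from lists of other genes. Of 5 mitoribosomal subunits with other names, 0 were called by edgeR and 2 were at an unadjusted p under 0.05. The nearest was Aurkaip1, with 332 to 394 normalized counts in Mitol KO HSCs and 246 to 311 in control HSCs (log2 fold change 0.39, SE 0.12, adjusted p = 0.0589). Of 26 assembly and rRNA modification factors, 0 were called by edgeR and 0 were at an unadjusted p under 0.05, with a median of 0.10.

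Of 14 translation factors, Tufm rose and Guf1 fell. Tufm, the elongation factor that brings tRNAs to the ribosome, had 352, 391, 290 and 275 normalized counts in Mitol KO HSCs and 216, 210, 204 and 163 in controls. Its log2 fold change was 0.70 (SE 0.15, adjusted p = 0.0192). Guf1, a GTPase of the elongation factor family, had 476 to 527 against 590 to 695 normalized counts, without overlap (log2 fold change -0.36, SE 0.10, adjusted p = 0.0378).

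Neither mitochondrial rRNA passed the threshold. Small-subunit rRNA mt-Rnr1 had a log2 fold change of 0.27 (SE 0.11, adjusted p = 0.155) and large-subunit rRNA mt-Rnr2 of 0.02 (SE 0.07, adjusted p = 0.867). Of 13 mitochondrially encoded mRNAs, 7 are in the table, all 7 with positive values, and mt-Nd2 was called at 0.63 (SE 0.15, adjusted p = 0.0288). Cytosolic ribosomal proteins had a median of 0.15 over 80 genes, with 8 calls (10.0%), all higher. Nuclear subunits of the respiratory chain had a median of 0.41 over 81 genes, with 26 calls (32.1%), all higher. Members lay between these lists in median, at 0.23, and the differences between lists were not tested.

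Many members start close to the start of another gene on the opposite strand, either head to head or with the starts overlapping. Within 1000 bases of the start, 27 of 77 members (35.1%) have the start of a protein-coding gene on the opposite strand, against 12.7% of 14062 protein-coding genes. Mrpl46 and Mrps11 form such a pair with each other, at 30 bases between starts, with log2 fold changes of 0.19 (SE 0.26) and 0.48 (SE 0.17). In the 25 pairs whose partner is no member, 16 partners had positive values, with a median of 0.10, against 47.7% positive among all genes. Past the threshold were 5 partners, all higher, against 8.43% of all genes in either direction and 4.68% in the higher direction. These were Ncapd2 beside Mrpl51 at 1.20 (SE 0.16), Ska3 beside Mrpl57 at 1.17 (SE 0.28), Eme1 beside Mrpl27 at 0.89 (SE 0.24), Ndufb5 beside Mrpl47 at 0.58 (SE 0.10) and Tcp1 beside Mrpl18 at 0.45 (SE 0.10). Ncapd2 and Ska3 act in chromosome condensation and segregation, Eme1 in DNA repair, Ndufb5 in respiratory complex I and Tcp1 in protein folding. Ska3, Eme1, Ndufb5 and Tcp1 start inside the member beside them. Counts in such overlaps are uncertain where the counting did not use strand.

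Mrps12 and Sars2, the mitochondrial seryl-tRNA synthetase, start 129 bases apart and share the promoter sequence shown. Sars2 had 296 ± 32.7 normalized counts in Mitol KO HSCs and 222 ± 57.7 in controls (SD, n = 4). The log2 fold change was 0.40 (SE 0.18, adjusted p = 0.180), which did not pass the threshold. For Mrps7, the partner Gga3, which starts inside Mrps7, had the opposite sign, at -0.19 (SE 0.10). In the 25 pairs, both genes were positive in 13, and the member was positive and its partner negative in 8.

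**Figure D5:**
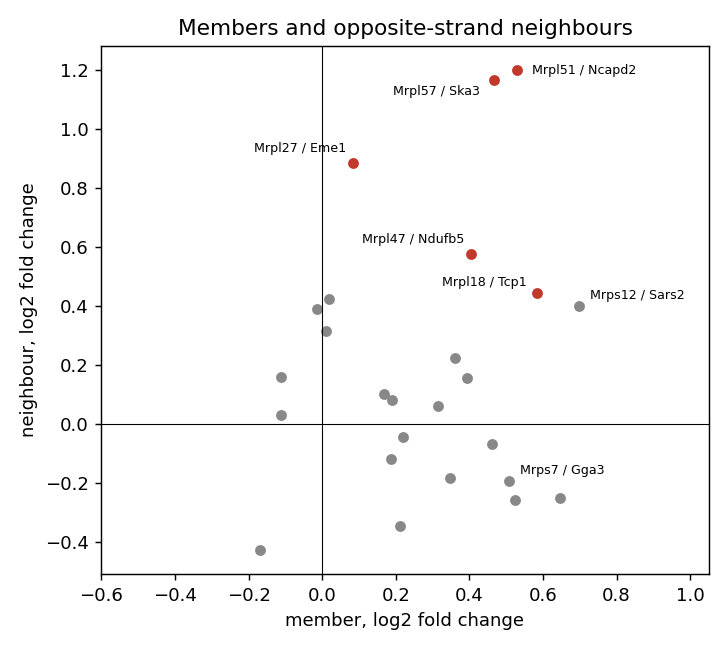
Log2 fold change of a member (x axis) and of its opposite-strand neighbour (y axis) for the 25 pairs whose partner is no member, 1 point per pair. Red points are the 5 neighbours past the threshold, named with their members, together with the neighbours of the called members Mrps12 and Mrps7. Both genes are above 0 in 13 pairs.

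RefSeq promoter windows were found for 68 members, 74 windows in all. The YY1 letters AAGATGGC occurred in 12 of 74 member windows (16.2%) and in 4.2% of 13326 windows of tested genes. The ETS letters CCGGAAG occurred in 33.8% and 16.6%, and the NRF1 letters GCGCATGC in 10.8% and 5.01%. Shares were closer for GGGCGG at 52.7% and 60.1%, CCAAT at 39.2% and 37.5%, the E-box CACGTG at 9.46% and 9.73% and the CRE TGACGTCA at 2.7% and 2.86%. The ERR letters TCAAGGTCA were in 0 member windows and in 0.278% of windows of tested genes. These letters describe the windows and are no measure of binding.

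Among called members, the windows of Mrps12, Mrps24 and Mrps7 held the YY1 letters, at positions 52 to 59 in reverse complement, 287 to 294 and 269 to 276 of the 300 bases shown. Matches did not overlap each other in these windows. The median log2 fold change was 0.44 over the 12 members with the YY1 letters and 0.23 over the 56 with a window but without them. For the ETS letters the medians were 0.23 over 25 members with and 0.24 over 43 without. For the NRF1 letters they were 0.07 over 8 members with and 0.30 over 60 without. The E-box letters gave 0.52 over 5 members with and 0.23 over 63 without, and the CRE letters 0.11 over 2 and 0.25 over 66. Medians with and without were 0.23 and 0.24 for GGGCGG, and 0.27 and 0.23 for CCAAT. These differences were not tested.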

How the data were processed

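RNA of 100 sorted HSCs per library was reverse transcribed, made into libraries with a Nextera XT kit and sequenced as single-end reads. The authors aligned reads with STAR to mm39, merged files with SAMtools, assigned reads to genes with Subread, and deposited raw counts. Which annotation and strand setting they used is not given in the sources used here. The table has 23094 rows, each with at least 11 counts, and 1029 rows without a symbol (0.335% to 0.467% of a library's counts) were left out. The lowest and highest library totals were 7214935 and 12398138. Samples were grouped by their titles, and libraries of a group differed by more than sampling noise.

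Counts were tested with edgeR (version 4.0.16) in R (version 4.3.3), using TMM normalization, the default expression filter and group as the only term. DESeq2 (version 1.42.0) and limma-voom (limma version 3.58.1) were alternatives, beside DESeq2's size factors, upper quartile normalization, no filter, the replicate number as a block and each library left out. Levels per length used TMM-scaled CPM, computed from the deposited counts, and canonical transcripts of GENCODE vM39 on GRCm39, which matched 21525 symbols. Promoter windows came from RefSeq on GRCm38.p6. The fits were tested on simulated counts whose planted fold changes were larger than that of any member. That check does not cover changes of the members' size.

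Named members were those past the threshold, the 5 with the lowest p in each direction, the 3 highest and 3 lowest per length, and members of 6 lists of place or name. Of other lists, genes past the threshold were named, and both mitochondrial rRNAs. Among the 12 HSC markers, Gfi1b, Ctnnal1 and Pdzk1ip1 were not in the marker list of the analysis plan. Further genes were named after their values were seen. They were Aurkaip1, Sars2, Gga3, Mrps11, Mrps17, Prtn3, S100a8, S100a9 and Slamf1, the neighbours past the threshold and the members beside them. Members and lists were chosen with earlier results of these data known, and Mrpl55 was put with the members specific to mitochondria after values were seen, to correct its class. The labels do not say whether libraries came from separate mice, so p-values measure the spread between these libraries. No molecular identifiers are described, so reads of 1 molecule can be counted repeatedly.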

Additional observations from a re-analysis of the deposited data

Results flagged for a closer look

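Among the members named and the summed levels, 94 groups of 4 libraries were examined for a library far from the others, and 1 was found. Mrpl17 had 382 normalized counts in Mitol KO replicate 4 and 417 to 422 in the other 3 Mitol KO libraries, a gap of 0.888 of the group's range. Chance alone marks about 1 in 20 such groups.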

How the results depend on the processing

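The medians over all members, Mrpl genes and Mrps genes stayed positive in all 14 alternative fits, and the median over members ran from 0.17 with upper quartile normalization to 0.31 without control replicate 1. The median over all genes moved too. It was -0.08 with upper quartile normalization, -0.0077 without control replicate 1 and -0.02 in the main fit. Under upper quartile normalization 55 members were positive and 5 called, and 41.3% of calls over all genes were higher, against 55.6% with TMM. DESeq2 called 2315 genes and 17 members, against 1386 and 6. With 1 library left out, calls over all genes ran from 359 to 2501 and calls among members from 0 to 16. Members without overlap ran from 17 to 34, the last without control replicate 1. Leaving out a library can only keep or raise that number, and the share of all genes was not counted for these omissions, so the range says nothing particular to the members. Each of these fits had 1 library fewer, and calls among members were lost in some and rose in others. The cause of the unequal effect of libraries was not tested. The replicate number as a block called 8 members, with a median of 0.24. It also called 957 of all genes higher, against 770 in the main fit, so calls rose over all genes as well. Deviations from the group means, correlated between same-numbered libraries, gave values from -0.07 to 0.08. For replicate 3 the same number gave the highest correlation, and for the other numbers it did not. With 4 libraries per group, these values cannot exclude pairing, and the main fit did not use the numbers.

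Among the 36 named members, signs turned in these fits only for 6 members far from the threshold. With upper quartile normalization the log2 fold change of Mrpl16 was -0.0098, of Mrpl44 -0.0037, of Mrps18a -0.021 and of Mrps18c -0.052, and with the replicate block that of Mrps18c was -0.0036. With 1 library left out, ranges crossed 0 for Mrpl16 (-0.040 to 0.19), Mrpl44 (-0.054 to 0.17), Mrps18a (-0.033 to 0.13), Mrps18b (-0.18 to 0.053), Mrps18c (-0.18 to 0.17) and Mrps34 (-0.44 to 0.13). The mean ratio of large to small sums was higher by 0.02 in Mitol KO HSCs and lower per length, by less than the spread between libraries in both cases. The 8 libraries and 100 cells per library limit what could be detected.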
